A study of Homo sapiens with 3 samples.

Results

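Interferon-stimulated genes were examined across 3 populations of the human melanoma line 1205Lu, which was derived from a lung metastasis that WM793 cells formed in a xenografted mouse. The original monolayer (OM) was grown for 14 days in RPMI-1640 with 10% FCS. The melanoma bodies (MB), attached 3D-spheroids, were grown for 14 days in hESC medium, a DMEM F-12 base that holds 20% Knock Out (KO) serum replacement in place of FCS. The new monolayer (NM) came from bodies kept for 14 days in hESC medium and then for 10 days in RPMI-1640 with 10% FCS, and bodies that remained were removed before RNA was prepared. The comparisons address what differs between monolayer and body growth of 1 line, and what is regained when bodies return to a monolayer. The members are the 35 genes of a list of known interferon targets, matched by gene name on the array, of 17078 named genes, and of several probes of a gene the one brightest on average was taken. Signals are arbitrary units (a.u.) of Cy3 fluorescence after each array was scaled to 3 housekeeping genes, and they compare a gene between arrays, not 1 gene with another.

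Each population was measured on 1 array, so the values carry no error between cultures and no test was possible. The only spread available is technical. For a probe printed in several spots, the SD of the log2 ratio of single spots was 0.045 (MB over OM), 0.041 (MB over NM) and 0.046 (NM over OM) when both arrays read above 100 a.u. It was 0.247, 0.223 and 0.176 in the same order when the dimmer array read 30 to 100 a.u. A difference of 2-fold or more, with the brighter array above 100 a.u., was counted in the text as past 2-fold. Of the 35 members, 34 were well above background on all 3 arrays, and the exception was IFI44L. No member spot was saturated (0 of them). The melanoma label was checked against 14 melanocyte and melanoma markers, of which 12, 12 and 11 passed background in OM, MB and NM, while TYR and TYRP1 were not on any array and MLANA was not on NM. The summed signal of this list was 627791 a.u. on OM, 667655 a.u. on MB and 670829 a.u. on NM, most of it from VIM (454704 a.u. on OM). Single markers differed by more, as EGFR was 3.95-fold higher in NM than OM, and MB exceeded NM by 2.95-fold for S100B, 3.21-fold for S100A1 and 2.48-fold for CSPG4. Of 11 leukocyte markers 7, 6 and 6 passed in the same order, with summed signals of 956, 960 and 1378 a.u., and PTPRC, CD3D, CLEC4C and IL3RA were at background on all 3. Of 5 endothelial markers 2 were above background on each array, with sums of 247, 517 and 387 a.u., and CDH5 was at background on all 3. The part of these cells in any result was not tested, and fewer cells of a type and less RNA per cell cannot be told apart in bulk RNA.

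Interferons are secreted proteins that bind receptors on the cell surface and, through JAK kinases and STAT proteins, switch on a set of genes. Type I interferon acts mainly through a complex that holds STAT2 and IRF9 and binds the interferon-stimulated response element (ISRE), and interferon gamma acts mainly at the gamma-activated site (GAS). The products sense foreign nucleic acid, block viral replication and prepare peptides for MHC class I molecules, and many melanoma cells make some of them without added interferon.

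Between OM and MB, 28 of 35 interferon-stimulated genes were within 1.5-fold (80%), as were 70.6% of all genes, and a small group differed by more in MB or NM. Against OM, ISG20 was 3.54-fold lower and IFITM1 2.78-fold higher in MB. Against NM, ISG20, IRF1, GBP2, IFI27 and PSMB9 were lower past 2-fold in MB (14.3% of members, against 7.98% of all genes). IFITM1 and OAS2 were higher (5.71%, against 9.64%). IFITM1 and OAS2 passed 2-fold there under 10 of 14 other settings, and PSMB9 under 12. In NM, GBP2 and IRF1 were 3.53-fold and 2.77-fold above OM under the scaling used here and past 2-fold under all 14 other settings. Some of the 14 could not change these ratios, as each gene had 1 probe and was above background throughout. MX2, IFIH1 and IFI16 also passed 2-fold in NM over OM, but MX2 on 1 of its 2 probes, and IFIH1 and IFI16 not under 6 of the 14.

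**Figure D1:**
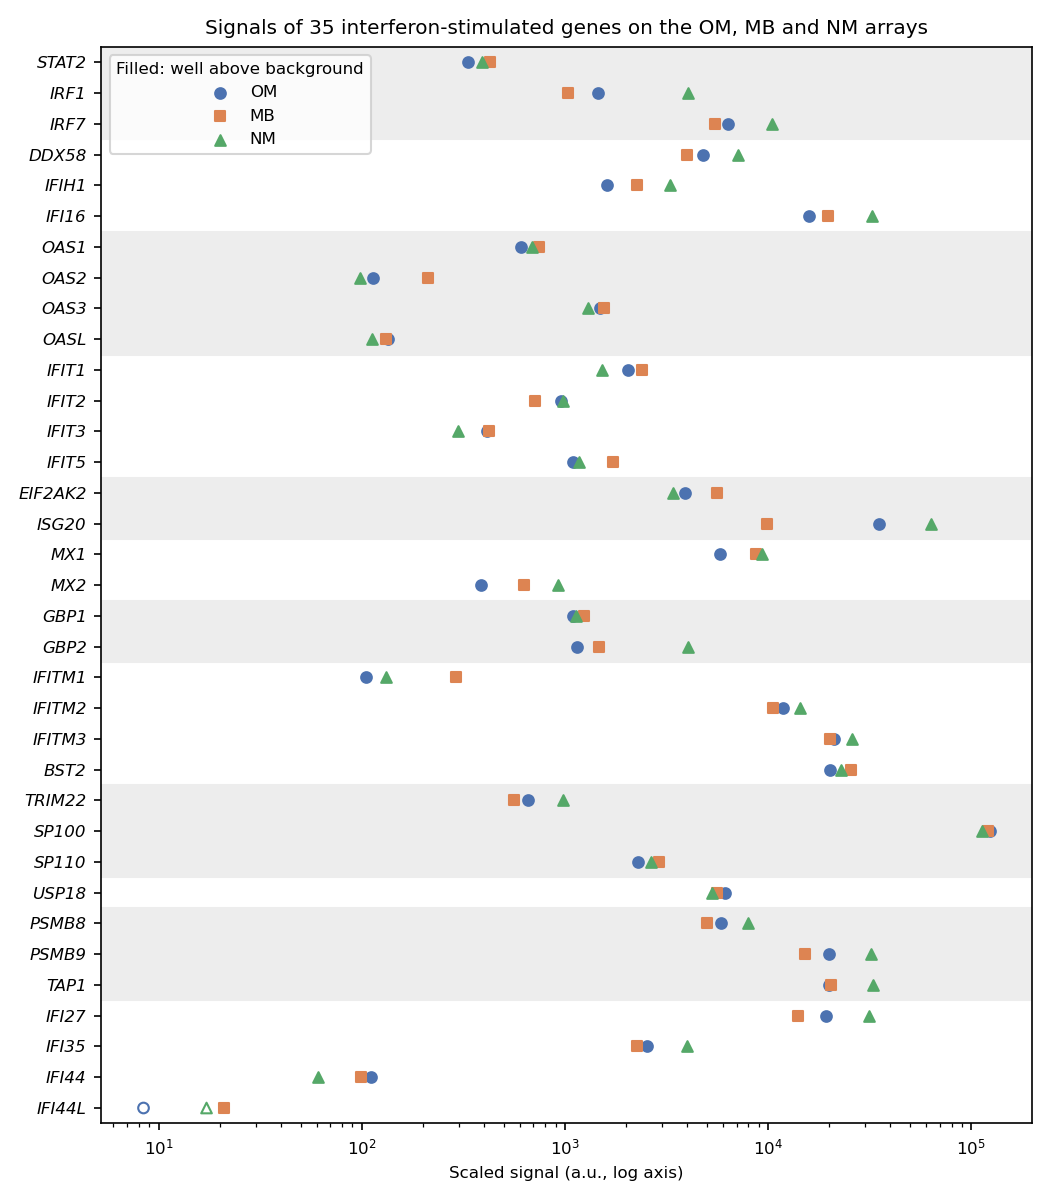
Scaled signal (a.u., log axis) of each of the 35 interferon-stimulated genes on the OM (circle), MB (square) and NM (triangle) arrays, 1 array each, with shaded bands separating the roles in which the text takes them. Open symbols are not well above background. The points of ISG20, IRF1 and GBP2 lie far apart, and those of genes such as SP100, USP18, GBP1 and OAS3 nearly coincide.

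The letters in front of the genes were examined first, since they are what the STAT and IRF factors read. RefSeq promoters (GRCh38.p14), running from 250 bases before to 50 after a start site, were given for 26 of the 35 members, with 36 start sites, and DDX58 was matched under its current name RIGI. The ISRE core, taken as GAAA, any 2 bases and GAAA on either strand, stood in 21 of the 36 member promoters (58.3%) and in 3.57% of all 35116 promoters. The GAS, taken as TTCNNNGAA, stood in 11 of the 36 (30.6%) and in 7.66% of all promoters. A match describes these letters and shows no binding, and the windows of the 2 motifs can overlap. Start sites of a gene can lie close together, as for IFI27 and IFI44, so the same match can count in several promoters. The following windows of 60 bases are shown because they belong to the member with the largest difference in MB (ISG20, chr15:88638927-88638986, + strand), the member highest in MB against OM (IFITM1, chr11:313980-314039, + strand), a classical target with little difference (IFIT1, chr10:89392487-89392546, + strand), a gene of antigen processing (TAP1, chr6:32853799-32853858, − strand) and a GAS in the factor gene IRF1 (chr5:132490858-132490917, − strand). They are written 5′ to 3′ in the direction of transcription, and capitals mark the ISRE core in the first 4 and the GAS in IRF1.
ISG20: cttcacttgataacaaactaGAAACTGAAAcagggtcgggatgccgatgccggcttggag
IFITM1: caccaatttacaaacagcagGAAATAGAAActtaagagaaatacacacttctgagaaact
IFIT1: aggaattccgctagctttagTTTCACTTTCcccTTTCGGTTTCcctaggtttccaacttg
TAP1: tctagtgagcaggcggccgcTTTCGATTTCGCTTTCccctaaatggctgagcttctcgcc
IRF1: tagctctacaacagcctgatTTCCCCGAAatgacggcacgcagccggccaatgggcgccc
Counted from the start site, the windows begin at −89 (ISG20), −60 (IFITM1), −136 (IFIT1), −154 (TAP1) and −144 (IRF1). IFIT1 and TAP1 each hold 2 ISRE cores in the window, on the reverse strand, and those of TAP1 overlap. ISG20 and IFITM1, which differed in opposite directions in MB, each hold an ISRE core within 100 bases of the start. Of the 26 genes, 17 held an ISRE core and 10 a GAS. The median log2 ratio of genes with and without an ISRE core was 0.18 and −0.03 in the comparison of MB with OM, 0.17 and −0.72 in that of MB with NM, and 0.30 and 0.57 in that of NM with OM. With and without a GAS they were 0.16 and 0.12, −0.38 and 0.14, and 0.55 and 0.17 in the same order. These medians describe small groups of genes on shared arrays, and no difference between them was tested.

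The transcription factors of the response were taken first. IRF1, an interferon-induced factor that activates GBP and antigen-processing genes, read 1455 a.u. in OM, 1031 in MB and 4028 in NM (probe at chr5:131847341-131847400 of hg17, − strand). Its NM signal was the high one, 2.77-fold above OM and 3.91-fold above MB, and MB lay 1.41-fold under OM. IRF7, which drives interferon alpha genes, read 6356 a.u. in OM, 5489 in MB and 10481 in NM. NM was again highest, and MB was 1.91-fold lower than NM, the difference nearest to 2-fold among those that missed it. A dimmer IRF7 probe gave 133, 128 and 243 a.u. in the same order, with MB 0.525 times NM. STAT2, a subunit of the ISRE-binding complex, read 334 a.u. in OM, 429 in MB and 392 in NM, within 1.29-fold.

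The 3 members grouped here as sensors of foreign nucleic acid were highest in NM, as were 39.8% of all genes. Members of other groups that bind double-stranded RNA, EIF2AK2, OAS2 and OAS3, were highest in MB and lowest in NM. OAS1 was also highest in MB. DDX58, the RNA sensor RIG-I, read 4792 a.u. in OM, 4005 in MB and 7126 in NM. IFIH1, the sensor MDA5 for long double-stranded RNA, read 1607 a.u. in OM, 2259 in MB and 3303 in NM, 2.06-fold above OM. IFI16, a DNA sensor of the nucleus, read 15898 a.u. in OM, 19661 in MB and 32289 in NM, 2.03-fold above OM. A separate IFI16 probe gave an NM over OM ratio of 2.01. Where the 3 sensors differed was MB, below OM for DDX58 and between OM and NM for IFIH1 and IFI16. IFIH1 and IFI16 were at the edge of the 2-fold limit and fell short of it under 6 of 14 other settings, down to 1.80 and 1.78.

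The oligoadenylate synthetases, which make a second messenger on binding double-stranded RNA, varied little except for OAS2. OAS1 read 610 a.u. in OM, 748 in MB and 689 in NM, and OAS3 read 1493, 1550 and 1300.0 a.u. in that order. OASL, a family member that boosts RIG-I signalling, read 134 a.u. in OM, 132 in MB and 113 in NM. OAS2 was the highest in MB, with 113 a.u. in OM, 212 in MB and 97.8 in NM, a ratio of 1.87 over OM and 2.17 over NM. The other OAS2 probe read 56.3, 136 and 46.2 a.u., with ratios of 2.41 and 2.94. The OAS2 difference from NM was below 2-fold under 4 of the other settings, and its signals are near the 100 a.u. limit. OAS1, OAS3 and OAS2 are neighbours on chromosome 12, and their ratios for MB over NM were 1.09, 1.19 and 2.17.

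The IFIT proteins bind viral RNA or its cap, and their genes lie together on chromosome 10. IFIT1 read 2045 a.u. in OM, 2385 in MB and 1525 in NM, and IFIT3 read 413, 421 and 297 a.u. in that order. Both were lowest in NM, by 1.34-fold and 1.39-fold under OM. IFIT2 was lowest in MB, with 957 a.u. in OM, 713 in MB and 977 in NM, and IFIT5 was highest there, with 1091, 1718 and 1167 a.u. No IFIT gene passed 2-fold in any comparison (0 of 4). Of all genes, 2.63% to 9.64% passed it, by comparison and direction, and 4 genes are too few to differ from such shares.

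Among enzymes that act on RNA, ISG20 showed the largest difference of all members. ISG20, an interferon-induced exonuclease that degrades single-stranded RNA, read 35047 a.u. in OM, 9897 in MB and 63087 in NM (probe at chr15:86999788-86999847 of hg17, + strand). MB was the low array, 3.54-fold under OM and 6.37-fold under NM, and NM was 1.80-fold above OM. Its ISRE core is the one printed above. EIF2AK2, the kinase PKR that stops translation when it binds double-stranded RNA, went the other way, with 3901 a.u. in OM, 5581 in MB and 3407 in NM. Its signal in bodies exceeded OM by 1.43-fold and NM by 1.64-fold.

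The MX proteins are dynamin-like GTPases that trap viral components. MX1 read 5771 a.u. in OM, 8703 in MB and 9329 in NM, with MB and NM within 1.07-fold of each other and both above OM. MX2 read 386 a.u. in OM, 632 in MB and 922 in NM, and NM was 2.39-fold above OM. The other MX2 probe read 238, 184 and 238 a.u., with NM over OM at 1.00, so the MX2 difference rests on 1 of its probes. Of the guanylate-binding proteins, GTPases induced above all by interferon gamma, GBP1 read 1095 a.u. in OM, 1245 in MB and 1127 in NM. GBP2 was high in NM alone, with 1144 a.u. in OM, 1473 in MB and 4033 in NM. This was 3.53-fold above OM, the largest NM over OM ratio among the members, and 2.74-fold above MB. The GBP2 probe spans chr1:89287917-89290181 of hg17 (− strand), more than its own 60 bases.

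**Figure D2:**
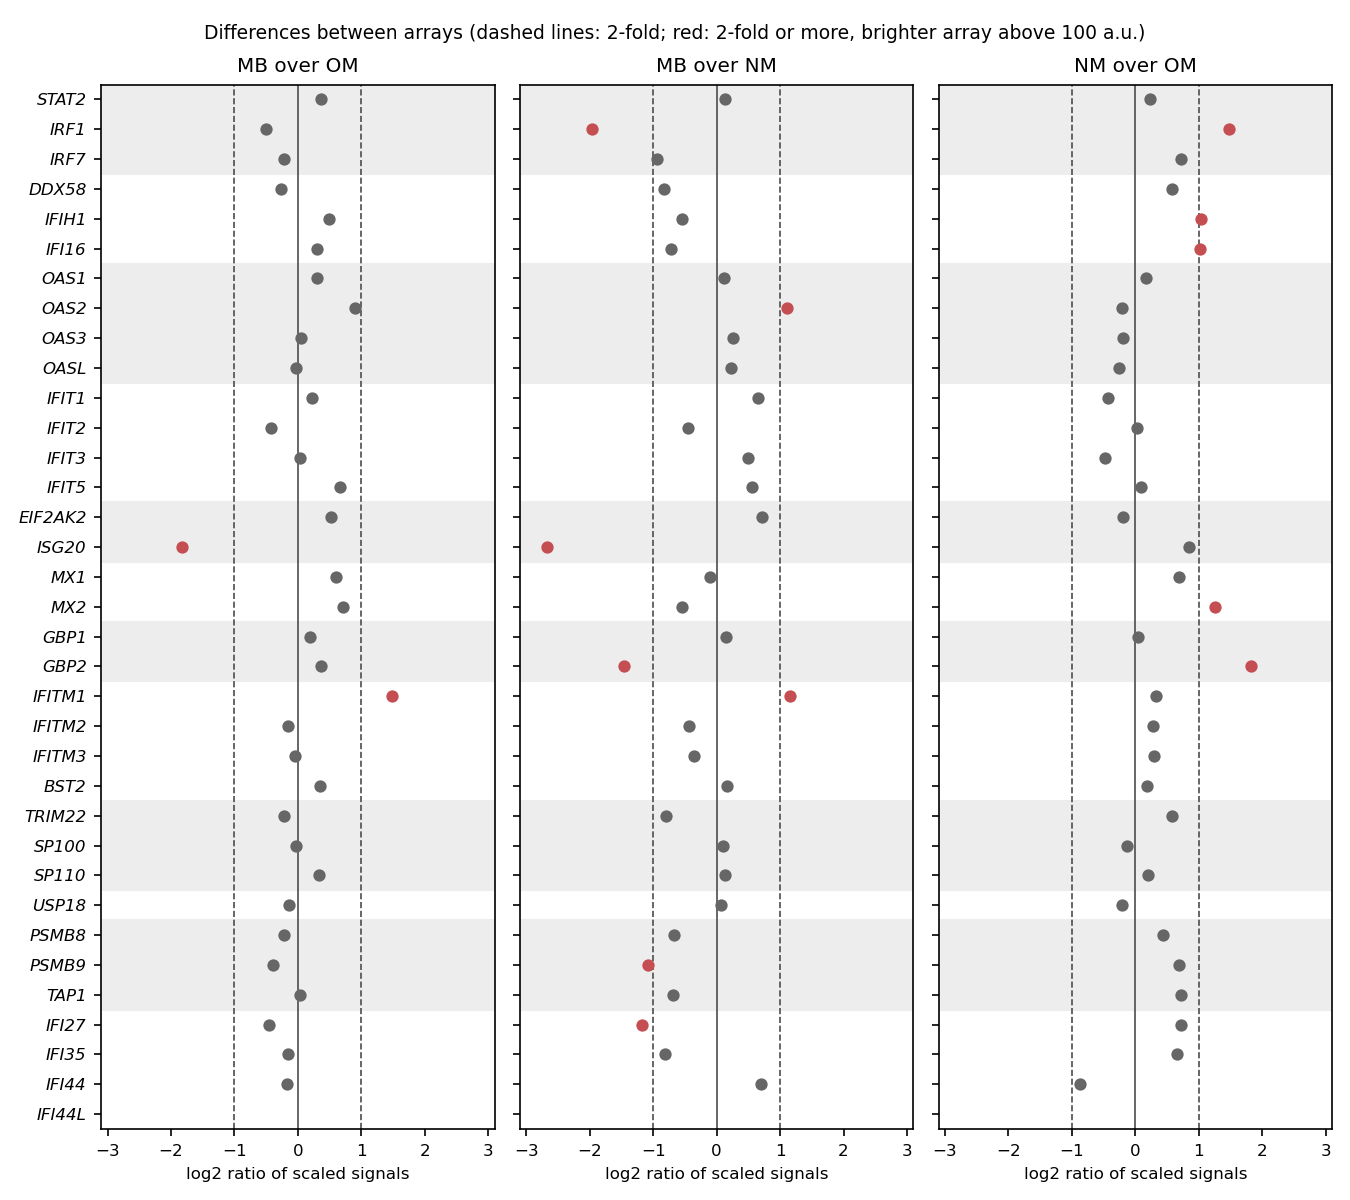
log2 ratio of scaled signals for each interferon-stimulated gene in the 3 comparisons, which share arrays. Dashed lines mark 2-fold, red points pass it with the brighter array above 100 a.u., and IFI44L is not drawn because it was at background on 2 of the arrays. ISG20 lies farthest to the left in both comparisons of MB, and GBP2 and IRF1 farthest to the right for NM over OM.

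The membrane restriction factors split by gene. IFITM1, which hinders the entry of enveloped viruses at the cell surface, read 105 a.u. in OM, 293 in MB and 131 in NM (probe at chr11:305209-305268 of hg17, + strand). The bodies exceeded OM by 2.78-fold and NM by 2.23-fold, and the monolayers differed by 1.25-fold. Its neighbours IFITM2 and IFITM3, which act on viruses in endosomes, were lowest in MB, with 11793, 10544 and 14325 a.u. for IFITM2 and 21020, 20254 and 25901 a.u. for IFITM3 in the order OM, MB and NM. IFITM2 and IFITM3 are close copies, and 28 of 30 bases in the following stretches of their probes are the same, with the shared run of 17 bases in capitals.
IFITM2: TCATGACCATTCTGCTCgtcatcatcccag
IFITM3: TCATGACCATTCTGCTCatcgtcatcccag
These stretches are bases 2 to 31 of the IFITM2 probe and 22 to 51 of the IFITM3 probe. Transcripts of 1 gene could add to the signal of the other, so their separate levels are uncertain. The IFITM3 probe also shares a longer unbroken run, of 28 bases, with an array probe that carries no gene symbol. BST2, called tetherin because it holds new virions at the cell surface, read 20155 a.u. in OM, 25715 in MB and 22855 in NM, within 1.28-fold. IFITM1 over NM was below 2-fold under 4 other settings, down to 1.73, whereas over OM it passed under all 14 (2.11 to 2.78). Some of the 14 could not change the IFITM1 ratios, as the gene had 1 probe.

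TRIM22, a ubiquitin ligase that limits retroviral transcription, read 656 a.u. in OM, 562 in MB and 978 in NM. SP110, a nuclear body protein, read 2287, 2888 and 2642 a.u. in that order. SP100, the defining protein of PML nuclear bodies, had 5 probes that did not agree. The brightest, used for the counts, read 123151 a.u. in OM, 120711 in MB and 112525 in NM, an NM over OM ratio of 0.914. The next read 2156, 1831 and 3792 a.u., a ratio of 1.76, and the remaining 3 gave 1.40, 0.552 and 0.369, the last with NM not above background. No direction is given for SP100. USP18, the protease that removes ISG15 and damps type I receptor signalling, was nearly flat, with 6132 a.u. in OM, 5586 in MB and 5300 in NM, and its other probe read 3481, 3174 and 3049.8 a.u..

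The genes of antigen processing lie within the MHC region on chromosome 6 and shared their peak in NM. PSMB8, an immunoproteasome subunit, read 5869 a.u. in OM, 5019 in MB and 7952 in NM. PSMB9, its partner subunit, read 19866 a.u. in OM, 15156 in MB and 32116 in NM, and MB was 2.12-fold under NM. TAP1, which carries peptides into the endoplasmic reticulum, read 19949 a.u. in OM, 20416 in MB and 32840 in NM. The NM signal exceeded OM by 1.35-fold, 1.62-fold and 1.65-fold, and the MB signal lay under NM for all 3. PSMB9 missed 2-fold against NM with quantile normalization and without scaling, where it was lowest at 1.90.

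Of the members named only for their induction by interferon, IFI27 was printed in 10 spots. IFI27, a small mitochondrial and membrane protein, read 19165 ± 371 a.u. in OM, 13989 ± 234 in MB and 31516 ± 632 in NM (SD over 10 spots of 1 array, technical). MB was 2.25-fold under NM and 1.37-fold under OM, and the other IFI27 probe gave 2.46-fold and 1.42-fold. IFI35, a leucine zipper protein, read 2539 a.u. in OM, 2272 in MB and 4000.4 in NM. IFI44 was the lowest in NM, with 111 a.u. in OM, 98.8 in MB and 60.9 in NM, 1.82-fold under OM. Its paralogue IFI44L was well above background on MB alone, at 21.0 a.u., and not on OM or NM, at 8.43 and 17.2 a.u., so no ratio is given for it.

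The counts of members past 2-fold were then read against all 13823 genes above background on at least 1 array. For MB over OM, 1 of 35 members was higher (2.86%), against 5.7% of all genes, and 1 was lower (2.86%), against 3.21%. For MB over NM, 2 members were higher (5.71%), against 9.64%, and 5 were lower (14.3%), against 7.98%. For NM over OM, 5 members were higher (14.3%), against 3.93%, and 0 were lower, against 2.63%. These 5 were GBP2, IRF1, MX2, IFIH1 and IFI16, and under the 6 settings where IFIH1 and IFI16 missed the limit the count was 3. At the 5-fold limit of the study, ISG20 alone passed, lower in MB than NM, against 1.35% of all genes. The other 5-fold counts were 0, against 0.94% higher and 0.615% lower in MB than OM, 1.63% higher in MB than NM, and 0.579% higher and 0.275% lower in NM than OM. With spike-in scaling the shares of all genes became 3.24% higher and 5.77% lower in MB than OM, and 7.42% higher and 10.3% lower in MB than NM, where 0 members were higher and 6 lower. Without scaling they became 2.57% higher and 3.99% lower for NM over OM, where 3 members were higher and 1, IFI44, lower.

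**Figure D3:**
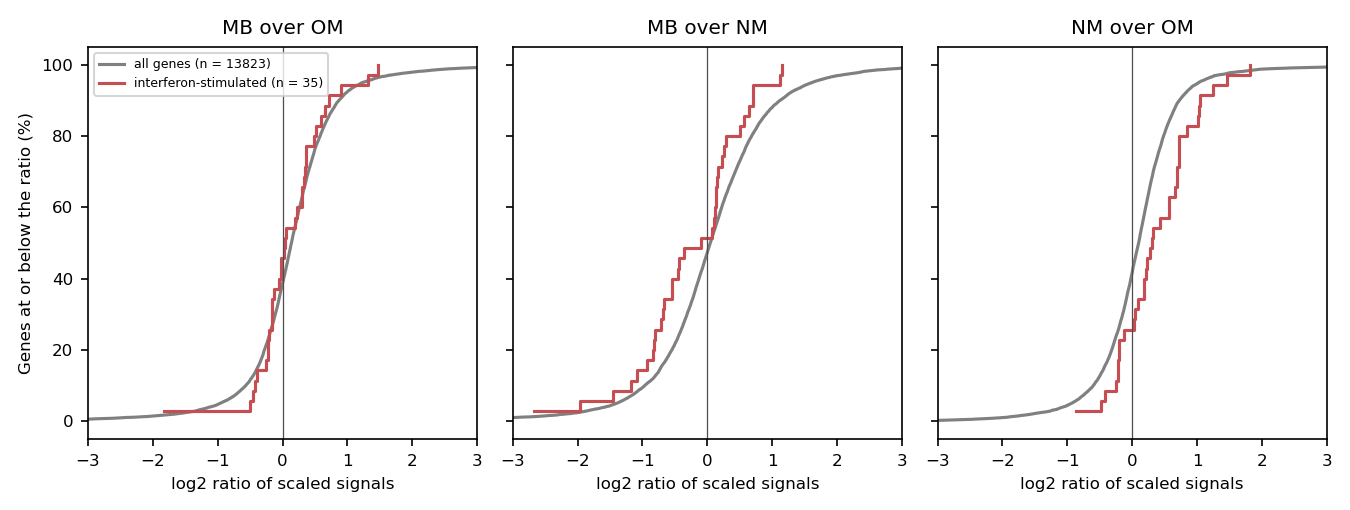
Share of genes (%) at or below each log2 ratio of scaled signals, for the 35 interferon-stimulated genes (red steps) and all 13823 genes above background (grey line). The curves run close together for MB over OM, with medians of 0.03 and 0.14, and the red curve lies to the right for NM over OM, with medians of 0.30 and 0.10.

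The middle of the list moved little for MB over OM. The median log2 ratio of the members was 0.03 for MB over OM, against 0.14 for all genes, and 28 of 35 lay within 1.5-fold (80%), against 70.6%. For MB over NM the medians were −0.10 and 0.05, and 18 of 35 lay within 1.5-fold (51.4%), against 57.7%. For NM over OM they were 0.30 and 0.10, and 21 lay within 1.5-fold (60%), against 74.5%. The NM signal was above OM for 26 of 35 members (74.3%), against 58.4% of all genes. IFI44L enters these medians and counts at its measured signals. Whether the list differs from other genes was not tested, as 1 array per population gives no error.

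The 3 arrays also order the members. In 18 of 35 the NM array was highest, against 39.8% of all genes, in 13 MB was, against 45.5%, and in 4 OM was, against 14.7%. Lowest in MB and highest in NM was the order of 12 members (34.3%), against 23.9% of all genes, namely DDX58, IFI27, IFI35, IFIT2, IFITM2, IFITM3, IRF1, IRF7, ISG20, PSMB8, PSMB9 and TRIM22. Lowest in OM and highest in NM were 6, against 15.9%, namely GBP2, IFI16, IFIH1, MX1, MX2 and TAP1. Highest in MB were EIF2AK2, IFIT1, IFIT3, OAS2 and OAS3, with NM lowest (5 members, against 26.9%), and BST2, GBP1, IFI44L, IFIT5, IFITM1, OAS1, SP110 and STAT2, with OM lowest (8, against 18.6%). Highest in OM and lowest in NM were IFI44, OASL, SP100 and USP18 (4, against 7.14%), by 1.82-fold for IFI44 and at most 1.19-fold for the rest. The place of SP100 is that of its brightest probe, with which its other probes do not agree, 2 of them with NM above OM. Highest in OM and lowest in MB were 0 members, against 7.57%. Some neighbours in these orders do not differ beyond the technical spread, as the MB and OM signals of OASL, IFIT3, SP100 and TAP1 lay within 1.02-fold of each other and 1 SD of a single spot's ratio is 1.03-fold.

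Further probes give a measure that the choice of probe did not use. There were 50 probes for the 35 genes, 12 genes had more than 1, and 14 of the 15 further probes, for 11 genes, were above background on at least 1 array. Of the 14, the ratio had the sign of the chosen probe in 11 (MB over OM), 12 (MB over NM) and 11 (NM over OM). The median size of the difference between the log2 ratios was 0.15, 0.16 and 0.11. The largest, 1.14, 2.45 and 1.31, all came from 1 SP100 probe.

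**Figure D4:**
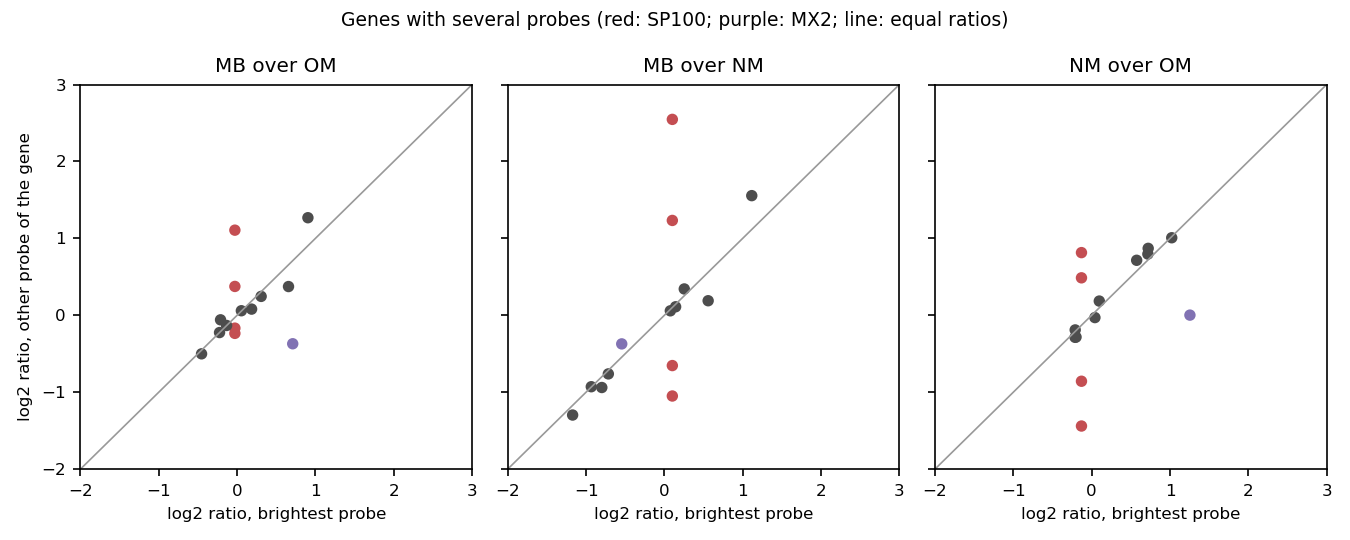
log2 ratio of each further probe of a member (vertical) against that of the brightest probe of the same gene (horizontal), for 14 probes of 11 genes in 3 comparisons. Most points lie near the line of equal ratios, and the farthest from it in each panel is an SP100 probe (red). Those of MX2 (purple), OAS2 and IFIT5 also lie off it in some panels.

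The pathway upstream of these genes was taken from fixed lists. Counts past 2-fold in these lists are to be read against the shares of all genes, 2.63% to 9.64% by comparison and direction. Of 20 interferon ligand genes 16 had a probe, and 3 were above background. The other 13, with IFNB1, IFNG, IFNL1 and IFNL3 among them, were at background on all 3 arrays. IFNE, an epithelial type I interferon, was the exception in size, with 317 a.u. in OM, 564 in MB and 55.5 in NM. The bodies exceeded OM by 1.78-fold and NM by 10.2-fold, and NM was 5.70-fold under OM. IFNA4, at 57.0, 53.4 and 38.0 a.u., and IFNL2, at 60.2, 48.1 and 57.1 a.u., were dim throughout.

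All 11 genes of the receptors and signal transduction list were above background, and 1 passed 2-fold. IFNLR1, the specific chain of the lambda interferon receptor, read 121 a.u. in OM, 291 in MB and 88.6 in NM, so that the bodies exceeded OM by 2.41-fold and NM by 3.28-fold. Its partner chain IL10RB read 2880, 3133 and 3861 a.u. The chains for type I interferon did not peak in NM, as IFNAR1 read 2704, 2424 and 2589 a.u. and IFNAR2 read 175, 178 and 102 a.u. The gamma receptor chain IFNGR1 read 4235 a.u. in OM, 4475 in MB and 7068 in NM, and IFNGR2 read 11774, 14931 and 14078 a.u. Of the kinases, JAK1 read 2317, 2534 and 3385 a.u., JAK2 read 499, 519 and 617 a.u., and TYK2 read 7072, 8341 and 8486 a.u. IRF9, the DNA-binding subunit of the ISRE complex, read 1846 a.u. in OM, 2677 in MB and 2835 in NM. The IRF9 and STAT2 signals were both lowest in OM, by at most 1.54-fold.

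Of 15 genes for the induction of interferon 10 were above background, and DHX58 (LGP2), a regulator of RIG-I and MDA5, passed 2-fold, with 4514 a.u. in OM, 2501 in MB and 8346 in NM. MB was 3.34-fold under NM. Of 7 genes that restrain interferon signalling 6 were above background, and 0 passed 2-fold in any comparison. SOCS1, the feedback inhibitor of JAK kinases, read 266, 374 and 262 a.u.

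A further list of 40 interferon-stimulated genes held 33 above background. For MB over OM 2 were higher and 1 lower past 2-fold, for MB over NM 3 and 3, and for NM over OM 2 and 0. The shares of all genes were 5.7% higher and 3.21% lower, 9.64% and 7.98%, and 3.93% and 2.63% in the same order. WARS1, a tryptophanyl-tRNA synthetase induced by interferon gamma, read 27121 a.u. in OM, 9671 in MB and 47159 in NM, the same order as ISG20. ZC3HAV1, the zinc finger antiviral protein, read 5110 a.u. in OM, 11552 in MB and 3380 in NM. It was highest in MB, as OAS2 and EIF2AK2 were. IFI6 read 1674 a.u. in OM, 3022 in MB and 4995 in NM. ISG15, the ubiquitin-like modifier that USP18 removes, read 3545, 4818 and 3207 a.u., and the chemokines CXCL9, CXCL10 and CXCL11 were at background on all 3 arrays. The list's median log2 ratios were 0.33 (MB over OM), −0.10 (MB over NM) and 0.16 (NM over OM).

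**Figure D5:**
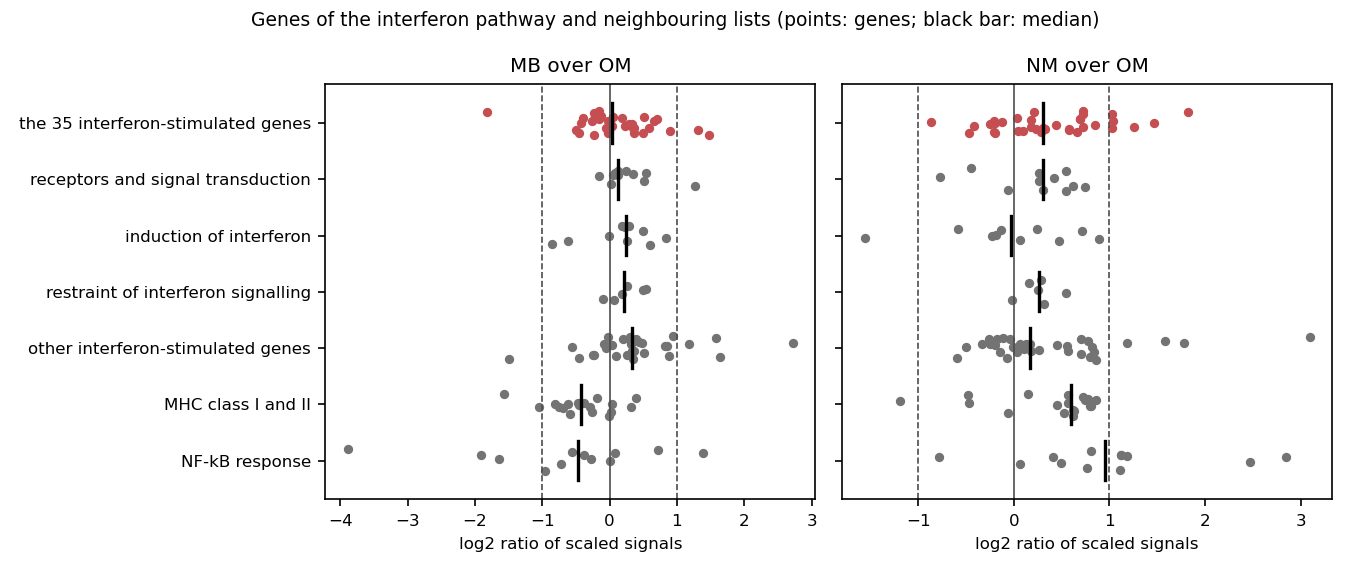
log2 ratio of scaled signals for the genes of each list above background on at least 1 array, for MB over OM (left) and NM over OM (right), with dashed lines at 2-fold and a black bar at each list's median. The 5 interferon lists drawn, which leave out the 3 measured ligands, have medians of 0.03 to 0.33 for MB over OM, and the MHC and NF-kB lists lie lower, at −0.42 and −0.46.

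Genes of MHC and of the NF-kB response were set beside the members. The MHC genes, which present the peptides that TAP1 carries, had median log2 ratios of −0.42 (MB over OM), −0.77 (MB over NM) and 0.59 (NM over OM) over 18 genes. HLA-F and HLA-E were 2.57-fold and 2.56-fold lower in MB than NM, and probes of the HLA class I genes can read more than 1 of them. HLA-DRA read 152, 51.5 and 66.6 a.u. The NF-kB response genes had medians of −0.46, −1.67 and 0.96 in the same order over 12 genes. CXCL8 read 1657 a.u. in OM, 112 in MB and 9213 in NM, CCL20 read 1046, 714 and 7537 a.u., ICAM1 read 48207, 12851 and 104715 a.u., and BIRC3 read 9601, 3076 and 20890 a.u. Past 2-fold, 1 of the 12 was higher and 3 lower in MB than OM, 1 higher and 8 lower in MB than NM, and 6 higher and 0 lower in NM than OM. The shares of all genes were 5.7% and 3.21%, 9.64% and 7.98%, and 3.93% and 2.63% in the same order. The 4 genes named were lowest in MB and highest in NM, as IRF1, ISG20 and PSMB9 were. TRAF1 ran the other way, with 11092 a.u. in OM, 28962 in MB and 6433 in NM, and TNFAIP3 was highest in MB, with 571, 942 and 800.5 a.u.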

How the data were processed

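Total RNA of OM, MB and NM was labelled with Cy3 and hybridised to 3 1-colour Agilent 4 × 44K arrays with probes of 60 bases, all on 1 slide. For each array the authors deposited the spot intensity given by Feature Extraction 9.5.3.1 (background subtracted, linear scale, not scaled between arrays). The deposited series table holds the same intensity values (130128 of 130128 within 0.1%). Probe coordinates are those of the files (hg17).

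From these, control and outlier spots were left out, spots of a probe averaged, and arrays scaled to 3 housekeeping genes averaged together (GAPDH, ACTB and, for the HSP90 of the study's methods, HSP90AA1), which on MB and NM were at 0.978 and 0.877 of OM. Background calls are those of the files. The number of arrays, 1 per population, limits precision. All members are named, the receptor list, and from the other lists the genes past 2-fold, or the 4 with the largest ratio where more passed. Some genes of these lists are not reported here. A few others are named as values at or near background or as examples (chosen after their values were seen). Members and lists were chosen with earlier results of these data known. The alternatives were other scalings, background corrections, filters, housekeeping genes and probe rules. The fold calls were checked on simulated arrays with known folds. The folds were given to probes well above 100 a.u. and lay away from 2-fold. Calls near either limit, and variation between cultures, were therefore not checked. Python 3.11.15, numpy 2.4.6, pandas 2.3.3, matplotlib 3.10.9 and limma 3.58.1 in R 4.3.3 were used.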

Additional observations from a re-analysis of the deposited data

How the results depend on the processing

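Under 13 alternatives and 1 more, chosen after seeing the data (the second-brightest probe of a gene), no member past 2-fold changed direction. GBP2, IRF1 and ISG20 passed 2-fold in both their comparisons under all 14, as did IFI27 for MB over NM (2.02 to 2.53) and IFITM1 for MB over OM. Neither the deposited series table nor the filters on background could change these ratios. The probe rules could not change those of GBP2, IRF1, ISG20 and IFITM1, which had 1 probe each. For MB over OM, the count of members higher, 1 as reported, was 2 with no filter on dim probes, with the mean over all probes and with the second-brightest probe. For MB over NM, the count higher, 2 as reported, was 0 with quantile normalization, spike-in scaling, normexp background correction and no background subtraction. Its count lower, 5 as reported, was 4 with quantile normalization and with no scaling. It was 6 with 75th percentile and spike-in scaling, the geometric mean of the housekeeping genes and the second-brightest probe. For NM over OM, the count higher, 5 as reported, was 3 with quantile normalization, normexp, no background subtraction and 75th percentile, spike-in and no scaling. It was 4 with the mean over all probes and with the second-brightest probe, and 6 with no filter. The count lower, 0 as reported, was 1 with no scaling and with spike-in scaling. For the median log2 ratio of the members less that of all genes, settings are named where it moved by at least 1 SD of a single spot's ratio. It was −0.10 for MB over OM, and −0.043 with quantile normalization and −0.034 with no filter. For MB over NM it was −0.15, and −0.068 with quantile normalization, −0.088 with normexp, −0.099 with no background subtraction, −0.26 with genes above background on all 3 arrays, −0.033 with no filter and −0.32 with the second-brightest probe. For NM over OM it was 0.20, and 0.25 with quantile normalization, 0.13 with no filter and 0.25 with the second-brightest probe. The cause of these changes was not tested. The median of all genes moved by −0.19 and −0.31 for MB over OM with 75th percentile and spike-in scaling, by −0.11, −0.17 and 0.16 for MB over NM with 75th percentile, spike-in and no scaling, and by −0.14 and −0.19 for NM over OM with spike-in and no scaling.

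With 1 array per population leaving out an array leaves no comparison, and medium, culture, RNA preparation and array cannot be told apart from population. No paired analysis was possible because each group has 1 sample. The larger technical spread was measured where the dimmer array read 30 to 100 a.u., as OAS2 did on NM and IFI44 on MB and NM. IFITM1, lowest at 105 a.u. on OM, lies just above that range, where no separate spread was measured. Ratios at background have no value.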
